A study of Mus musculus with 15 samples.

Results

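Macrophages grown from mouse bone marrow (BMDMs) and exposed to fully reduced HMGB1 (frHMGB1) were compared, across their transcripts, with BMDMs given PBS. The comparison used 6 of the 15 RNA-Seq libraries of the series, 3 per condition, chosen by their treatment label. The other 9 libraries, 3 each from disulfide HMGB1 (dsHMGB1), LPS and LPS with IFNγ (LPS/IFNγ), shared the statistical fit and are cited only to set the size of a response. BMDMs came from wild-type C57BL/6NTac female mice aged 8 to 10 weeks, were grown in M-CSF, rested overnight in low serum and stimulated for 24 h. The groups received PBS alone, frHMGB1 at 5 µg/mL, dsHMGB1 at 5 µg/mL, LPS-EK at 1 µg/mL, or LPS-EK with 20 ng/mL IFNγ. In the last group the LPS dose was 1 µg/mL by the treatment field and 100 ng/mL by the protocol text. frHMGB1 was a recombinant protein with a calmodulin-binding tag, made in-house and tested for endotoxin by a Limulus assay, and the sources differ on whether its buffers held the reducing agent DTT, while dsHMGB1 came from another laboratory. Cells of 5 mice were pooled before seeding, so the libraries of a group were technical replicates and every p covers the spread between libraries and not between mice.

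HMGB1 is a nuclear DNA-binding protein that acts as an alarm signal when it is released from stressed or dying cells. Its effect outside the cell depends on the redox state of its cysteines: the disulfide form binds the TLR4/MD-2 complex, and the fully reduced form pairs with the chemokine CXCL12 to signal through CXCR4. TLR4 signals through MyD88 and TRIF to the NF-κB transcription factors. These switch on cytokines and chemokines in macrophages, together with the inhibitors that later shut the pathway down.

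Libraries were made from mRNA with a stranded kit. Total counts were 40934540 to 42770651 in the frHMGB1 libraries and 45497806 to 67149385 in the PBS libraries. The macrophage identity of the cells was clear in both groups. All 12 macrophage markers passed the filter on low counts, and their summed level was 26900 to 33500 CPM (counts scaled to a fixed library total) in PBS and 33600 to 34100 CPM in frHMGB1, led by Lyz2. Sums for other cell types were small: fibroblast markers reached 214 to 482 CPM in PBS and 422 to 447 CPM in frHMGB1, endothelial markers 164 to 281 and 248 to 251 CPM, neutrophil markers 73.1 to 152 and 147 to 148 CPM, dendritic cell markers 76.8 to 231 and 94 to 116 CPM, B cell markers 38.9 to 42.1 and 46.1 to 52.5 CPM, T and NK cell markers 16.5 to 36.3 and 30.9 to 35.3 CPM, mast cell and basophil markers 5.03 to 10.7 and 6.5 to 7.02 CPM, and erythroid and megakaryocyte markers 1.44 to 2.55 and 1.6 to 2.38 CPM. The neutrophil genes Ly6g, Mpo, Retnlg and S100a9, the T and NK cell genes Cd3d, Cd3e, Cd3g, Cd8a, Ncr1 and Nkg7, and the haemoglobin genes had 0 reads in all 6 libraries. Osteoclast markers, many of which macrophages also express, summed to 1440 to 1890 CPM in PBS and 1510 to 1600 CPM in frHMGB1. None of the genes on these 10 marker lists was called different between frHMGB1 and PBS with all libraries. In the fit without PBS replicate 3, a library that stood apart, some were called, beside 5.06% of all genes higher and 6.43% lower. Aif1 (macrophage) and Bst2 (dendritic cell) were then called higher. Mpeg1 (macrophage), Col1a1 and Pdgfrb (fibroblast), Kit (mast cell), Kdr and Vwf (endothelial), and Atp6v0d2 and Itgb3 (osteoclast) were called lower. In bulk RNA, fewer cells of a type and less RNA per cell cannot be told apart.

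A pair of library features cut across the treatments and bear on what follows. PBS replicate 3 stood apart: its correlation with the other PBS replicates was 0.943 and 0.938 (Pearson, log2 CPM across protein-coding genes), against 0.995 between those and 0.991 to 0.992 among frHMGB1 replicates. Ribosomal protein genes took 6.07% of its counts, 1.84% to 1.93% in the other PBS libraries and 2.62% to 2.71% in frHMGB1. Processed pseudogenes, which are mRNA copies inserted elsewhere in the genome, took 0.54% to 0.56% of counts in frHMGB1 and 0.481% to 0.487% in LPS, but more in the other groups, where the ranges were 0.805% to 1.49% for PBS, 0.712% to 0.833% for dsHMGB1 and 0.684% to 0.709% for LPS/IFNγ. Reads of a gene and of its copies can be exchanged during mapping, so protein-coding genes formed the main set, and each gene's share of 50-base words that also occur in a transcript of another gene was computed from the reference. Results without PBS replicate 3 stand beside those from all libraries.

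Few genes were called in frHMGB1, and the group with a shared function among those called higher was the TLR4 and NF-κB response. Of 13025 protein-coding genes tested, 41 were called higher (0.315%) and 29 lower (0.223%) at an adjusted p under 0.05, while 1346 had an unadjusted p under 0.05. The rises were small: their median log2 fold change was 0.82, and 24 of the 41 were less than 2-fold. In comparison, 26.1% of the genes were called higher and 28.9% lower in dsHMGB1 than in PBS, 30% and 35.5% in LPS, and 32.4% and 36.1% in LPS/IFNγ. Irrespective of any test, the 3 frHMGB1 libraries all lay above the 3 PBS libraries for 874 genes (6.71%) and all below them for 933 (7.16%). Every gene called with all libraries was among those, so a lack of overlap is no further support for a called gene. With PBS replicate 3 left out, 13196 genes were tested and the calls rose to 668 higher (5.06%) and 848 lower (6.43%). All 41 and all 29 were among these, in the same direction. The number of calls therefore depended on 1 control library. With genes of every annotated type in the fit, 188 protein-coding genes were called higher and 55 lower, and 1325 and 474 without PBS replicate 3. Among protein-coding genes, the balance between rises and falls thus also depended on the genes fitted with them. Over all types, that fit with all libraries called 222 genes higher and 963 lower, with 861 processed pseudogenes among the falls. With only the frHMGB1 and PBS libraries in the fit, 12173 genes were tested, and edgeR called 0 higher and 2 lower (Aldoart1 and mt-Co3). In that fit 360 of the 12173 had an unadjusted p under 0.05, and the lowest adjusted p of a rise was 0.127. The Wald test of DESeq2 over all 15 libraries called 201 higher and 151 lower.

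Of the 41 genes called higher, 16 belonged to 4 lists of inflammatory genes: cytokines, chemokines, NF-κB factors with their feedback inhibitors, and effector genes that TLR4 induces in macrophages. These lists held 104 tested genes, so 15.4% of them rose and 0 fell, beside 0.315% and 0.223% of all genes. The lists were written with earlier results of these data known, and 97 of the 104 were called higher in dsHMGB1 than in PBS. The higher share is therefore a description and not independent support. Without PBS replicate 3, 40 of the 104 rose (38.5%, beside 5.06% of all genes) and 4 fell. The median log2 fold change of the 98 list genes with more than 3 reads in either group was 0.32, and 66 of them were above 0. Over all genes the median was -0.03, and 45.3% were above 0. The 4 lists differed. Medians were 0.58 for the effector genes (24 of 34 above 0) and 0.38 for the NF-κB list (23 of 24). They were -0.04 for the cytokines (8 of 19) and 0 for the chemokines (11 of 21). With all libraries these 2 lists thus did not shift as a whole. Without PBS replicate 3 the chemokine median was 0.48 (17 of 21 above 0) and the cytokine median 0.04 (11 of 19). In that fit the NF-κB list was at 0.4 (21 of 24) and the effector genes at 0.53 (23 of 34).

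Promoter sequences are shown for 5 of these genes because their promoters hold the binding motif of NF-κB. The 250 bases before each transcription start (RefSeq, GRCm38.p6) were searched on both strands for the 10-base NF-κB consensus. Of the 15 inflammatory genes called higher that had a promoter in the RefSeq table, 5 held a match (33.3%), compared with 5.61% of 10248 tested genes and 3.9% of all 32851 promoter windows. Of the 5, Nfkb2, Nfkbie and Tnip3 were on the list of NF-κB factors and feedback inhibitors. Because the lists were drawn up around NF-κB and TLR4, the higher share is no test of an NF-κB response. Genes with several annotated starts, such as Nfkb2, had several windows. Among all 37 genes called higher with a promoter, 7 held a match (18.9%), the further pair being H2-M2 and Tlr2, and among 9 genes called lower 0 did. The AP-1 motif TGANTCA, which reads the same on both strands and was counted whether or not it overlapped an NF-κB match, was found for 3 of the 15 (20.0%) and for 5.81% of tested genes. Capitals mark the NF-κB matches, and overlapping matches run together. A match describes the letters only and is no evidence of binding.
Cxcl1 (chr5:90890995-90891244, plus strand): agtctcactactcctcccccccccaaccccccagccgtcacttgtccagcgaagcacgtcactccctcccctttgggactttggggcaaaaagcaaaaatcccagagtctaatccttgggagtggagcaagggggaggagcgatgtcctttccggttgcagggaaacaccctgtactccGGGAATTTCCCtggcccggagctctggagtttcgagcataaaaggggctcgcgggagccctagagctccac
Cxcl2 (chr5:90903649-90903898, plus strand): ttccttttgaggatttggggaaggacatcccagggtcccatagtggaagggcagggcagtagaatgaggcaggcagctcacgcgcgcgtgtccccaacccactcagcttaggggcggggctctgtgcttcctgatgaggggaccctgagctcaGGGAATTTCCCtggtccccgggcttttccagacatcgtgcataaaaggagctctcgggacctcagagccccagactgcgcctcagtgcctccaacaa
Nfkbie (chr17:45555450-45555699, plus strand): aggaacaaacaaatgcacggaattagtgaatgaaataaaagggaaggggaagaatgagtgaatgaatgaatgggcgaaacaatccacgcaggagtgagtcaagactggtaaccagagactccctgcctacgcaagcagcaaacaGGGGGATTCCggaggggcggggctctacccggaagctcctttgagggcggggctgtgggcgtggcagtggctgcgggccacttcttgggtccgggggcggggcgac
Nfkb2 (chr19:46304487-46304736, plus strand): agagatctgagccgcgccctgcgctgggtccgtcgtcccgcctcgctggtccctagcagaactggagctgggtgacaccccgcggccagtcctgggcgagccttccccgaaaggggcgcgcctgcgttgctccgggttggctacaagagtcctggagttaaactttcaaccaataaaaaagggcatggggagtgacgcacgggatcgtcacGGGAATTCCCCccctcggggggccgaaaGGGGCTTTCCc
Tnip3 (chr6:65590148-65590397, plus strand): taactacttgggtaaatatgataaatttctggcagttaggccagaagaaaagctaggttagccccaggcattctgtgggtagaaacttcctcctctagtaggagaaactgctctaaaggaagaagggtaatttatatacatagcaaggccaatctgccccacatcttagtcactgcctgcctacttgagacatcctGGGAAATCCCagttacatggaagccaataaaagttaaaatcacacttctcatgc
The near-palindromic match of Cxcl1 began 71 bases before the start and that of Cxcl2 97 bases before it, and both neighbours on chromosome 5 carried the same 11 letters. For Tnf, Il1b, Acod1 and Gpr84, 0 matches were found in these 250 bases.

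Among cytokines and chemokines, Tnf, Il1b, Cxcl1 and Cxcl2 rose. Tnf (ENSMUSG00000024401, chromosome 17, 35199381 to 35202007 on the minus strand), which encodes tumour necrosis factor, had 686, 649 and 863 normalized counts in the PBS libraries and 1892, 2034 and 1818 in the frHMGB1 libraries (log2 fold change 1.39 ± 0.10 (SE), adjusted p = 2.15e-05). Its frHMGB1 libraries lay close together and more than 2-fold above every PBS library. Il1b (ENSMUSG00000027398, chromosome 2, 129364570 to 129371139 on the minus strand), the precursor of interleukin-1β, had 34.4, 44.0 and 31.4 in PBS and 103, 96.0 and 66.3 in frHMGB1 (log2 fold change 1.25 ± 0.20 (SE), adjusted p = 0.0033). The neutrophil attractant Cxcl1 rose from 9.44, 12.5 and 12.1 to 26.4, 42.9 and 55.6 (log2 fold change 1.89 ± 0.29 (SE), adjusted p = 0.00157). Its relative Cxcl2 rose from 72.1, 71.6 and 95.3 to 169.9, 213 and 195 (log2 fold change 1.31 ± 0.14 (SE), adjusted p = 0.000187), with 5.84% of its 50-base words shared with another gene. As for every gene called with all libraries, the groups did not overlap for any of these genes.

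No other gene of the cytokine list passed the test, with or without PBS replicate 3. Il6, Il12b and Il33, which were at 49120, 74520 and 123 normalized counts on average in LPS, were near or at 0 in both groups compared here. Il6 had 1.35, 0 and 9.65 in PBS and 2.11, 1.02 and 0 in frHMGB1, and Il12b had 3.37, 0 and 0 in PBS and 6.33, 0 and 0 in frHMGB1. In dsHMGB1, Il12b averaged 36080, while 2 of the 3 frHMGB1 libraries held 0 reads of it. Il10, an anti-inflammatory cytokine, had 44.5, 24.3 and 16.9 in PBS and 19.0, 15.3 and 24.6 in frHMGB1 (adjusted p = 0.552). The chemokine Cxcl9 had 18.9, 24.3 and 4.82 in PBS and 12.7, 23.5 and 2.14 in frHMGB1 (adjusted p = 0.786). Without PBS replicate 3, 7 of 22 chemokines were called higher, which added Ccl3, Ccl4, Ccl5, Ccl9 and Cxcl16, and Cxcl12 was called lower. Ccl4, an attractant of T cells and monocytes, had 822, 776 and 2404 in PBS and 1233, 1470.4 and 1166 in frHMGB1 (0.69 ± 0.14 without PBS replicate 3, adjusted p = 0.00428, and 0.975 with it).

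Nearly all genes of the NF-κB list lay above 0. Of its 24 genes, 23 had a log2 fold change above 0, and their median was 0.38. Called higher were Nfkbiz, Nfkbie, Traf1, Tnip3 and Nfkb2, all of them feedback regulators or subunits that NF-κB itself induces. Nfkbie (ENSMUSG00000023947, chromosome 17, 45555703 to 45563169 on the plus strand), which encodes the inhibitor IκBε, had 449, 476 and 541 normalized counts in PBS and 1010.1, 1052 and 922 in frHMGB1 (log2 fold change 1.04 ± 0.08 (SE), adjusted p = 5.12e-05). Nfkbiz, the co-regulator IκBζ, had 396, 434 and 189 in PBS and 806, 859 and 846 in frHMGB1 (log2 fold change 1.29 ± 0.22 (SE), adjusted p = 0.0122), and PBS replicate 3 was the low sample among its controls. The ubiquitin-binding inhibitor Tnip3 had 1275, 1355 and 1174 in PBS and 2049.7, 2191 and 2089.9 in frHMGB1 (log2 fold change 0.73 ± 0.06 (SE), adjusted p = 0.000238). Traf1, an adaptor of TNF receptors, rose by 0.77 and Nfkb2, which encodes p100/p52, by 0.48 on the log2 scale (adjusted p = 0.00106 and 0.00923). As for every gene called higher with all libraries, the lowest frHMGB1 library lay above the highest PBS library for each of these 5 genes. Without PBS replicate 3, 15 of the 24 were called higher and 0 lower. They then included Nfkbia, which encodes IκBα (0.83 ± 0.07, adjusted p = 8.73e-07, and 0.0748 with all libraries), Icam1 (0.71 ± 0.06, 1.03e-06 and 0.139), Relb (0.59 ± 0.08, 6.06e-05 and 0.382) and Tnfaip3, the deubiquitinase A20 (0.36 ± 0.07, 0.00193 and 0.315).

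Among the genes called higher were several surface receptors, of which Hcar2, Tlr2 and Osmr were outside the 4 lists. They are set together here after their values were seen, and other receptors of macrophages, such as Tlr4, Cd14, Cd36 and Cxcr4, were not called. Gpr84 (ENSMUSG00000063234, chromosome 15, 103308235 to 103310612 on the minus strand), a receptor for medium-chain fatty acids, had 27.6, 11.8 and 16.9 normalized counts in PBS and 100.3, 81.7 and 71.7 in frHMGB1 (log2 fold change 2.15 ± 0.23 (SE), adjusted p = 0.000441). Hcar2, a receptor for hydroxybutyrate and niacin, had 18.2, 19.1 and 18.1 in PBS and 74.9, 79.6 and 67.4 in frHMGB1 (log2 fold change 2.00 ± 0.21 (SE), adjusted p = 5.95e-07). Both were low in absolute terms. The replicates of Hcar2 lay close together within each condition, and those of Gpr84 were more spread. Clec4e, the C-type lectin Mincle, had 328, 358 and 306 in PBS and 929.9, 690.2 and 608 in frHMGB1 (log2 fold change 1.16 ± 0.15 (SE), adjusted p = 0.00077). Tlr2, the receptor for bacterial lipopeptides, had 3120.4, 3340.0 and 2920.5 in PBS and 5049, 4945 and 4999 in frHMGB1 (log2 fold change 0.67 ± 0.06 (SE), adjusted p = 0.000481). Osmr, a subunit of the oncostatin M receptor, had 50.6, 53.9 and 26.5 in PBS and 90.8, 104 and 97.4 in frHMGB1 (log2 fold change 1.11 ± 0.22 (SE), adjusted p = 0.044). The formyl peptide receptor Fpr1 had the highest fitted value among the called genes (log2 fold change 3.82 ± 0.77), but it rested on 4 reads over the PBS libraries and 42 over the frHMGB1 libraries.

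Among effector genes, Acod1 (ENSMUSG00000022126, chromosome 14, 103046977 to 103056573 on the plus strand), which makes the antimicrobial metabolite itaconate, had 111, 191 and 100.1 normalized counts in PBS and 633, 545 and 358 in frHMGB1 (log2 fold change 1.92 ± 0.23 (SE), adjusted p = 0.00077). Serpinb2, the plasminogen activator inhibitor 2, with 10.4% of its words shared, had 64.0, 88.1 and 9.65 in PBS and 225, 272 and 224 in frHMGB1 (log2 fold change 2.12 ± 0.41 (SE), adjusted p = 0.0395). PBS replicate 3 was again the low control, and without it the value was 1.66 ± 0.14. Of the 34 effector genes, 16 were called higher and 3 lower (Met, Slc7a11 and Slc7a2) without PBS replicate 3. Among those added were Sod2, the mitochondrial superoxide dismutase (0.50 ± 0.08, adjusted p = 0.000369, and 0.978 with it), Lcn2, the siderophore-binding lipocalin (3.65 ± 1.08, 0.0177 and 0.0518), and the co-stimulatory gene Cd83 (0.39 ± 0.06, 0.000818 and 0.0673). The cytokine signalling inhibitor Socs3 rose by 1.07 and Mefv, which encodes pyrin, by 0.86 on the log2 scale (adjusted p = 0.0452 and 0.0279). Outside the lists, the non-classical MHC gene H2-M2 had 378, 335 and 192 in PBS and 859, 667 and 621 in frHMGB1 (log2 fold change 1.24 ± 0.21 (SE), adjusted p = 0.00986). Genes outside the lists that were called higher with under 5% of shared sequence, named here after their values were seen, were Marcksl1 (1.01), Icosl, the ligand of the T cell co-stimulator ICOS (0.91), the glucose transporter family member Slc2a6 (0.75), Zmynd15 (0.82), Tle2 (0.69), Gsap (0.66), Vasp, an actin regulator (0.64), Ralgds (0.61), the copper transporter Slc31a2 (0.61) and Gpr85 (0.53). Herpud1, of the endoplasmic reticulum degradation machinery, and the iron transporter Slc11a2 were the called genes with the smallest rises, both at 0.38 on the log2 scale (adjusted p = 0.044 and 0.0212).

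**Figure D1:**
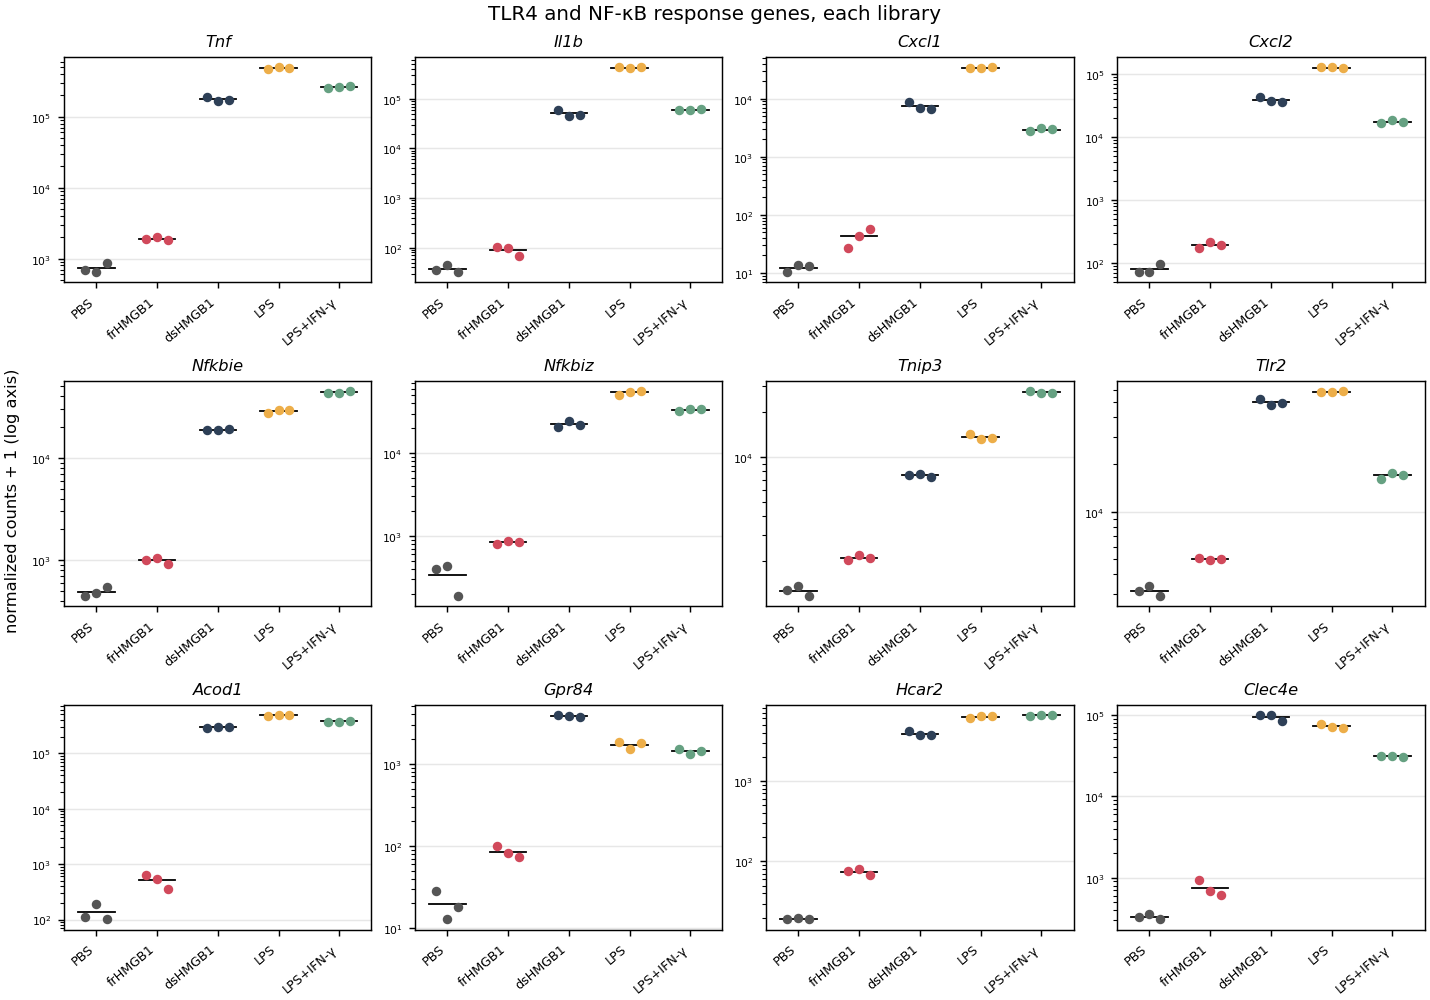
Normalized counts plus 1 (log axis) of 12 TLR4 and NF-κB response genes in each of the 15 libraries, by condition. Points are libraries, ordered by replicate number within a condition, and the lines are means of 3. For Tnf the frHMGB1 libraries lie at 1818 to 2034, above the PBS libraries at 649 to 863 and far below the dsHMGB1 mean of 176000.

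These levels were a small part of those in dsHMGB1. All 16 inflammatory genes called higher in frHMGB1 were higher still in dsHMGB1 than in frHMGB1, by 1.83 to 9.17 on the log2 scale with a median of 5.77. Of all 13025 genes, 26.3% were called higher and 24.3% lower in dsHMGB1 than in frHMGB1. Of all 41 genes called higher in frHMGB1, 33 were higher again in dsHMGB1, 5 were lower (H3f3a, Ppia, Tle2, Kpna2 and Hmgb1) and 3 did not pass the test (Sumo2, Rpl15 and Ptma). Against the same PBS libraries, the median log2 fold change of the 16 was 1.27 in frHMGB1 and 7.78 in dsHMGB1. Tnf averaged 1915 normalized counts in frHMGB1 and 176000 in dsHMGB1 (difference 6.52 ± 0.10 on the log2 scale, adjusted p = 7.80e-13). Acod1 averaged 512 and 294600 (9.17 ± 0.22, adjusted p = 4.52e-11). Tnip3 was the nearest, with 2110 and 7507 (1.83 ± 0.06, adjusted p = 3.72e-10). The excess of frHMGB1 over PBS, as a share of the excess of dsHMGB1 over PBS, was 0.102% at its lowest, 13.5% at its highest and 1.31% at the median of the 16 genes, so it was not the same for all of them: it was 0.102% for Il1b, 0.128% for Acod1, 0.674% for Tnf, 2.75% for Nfkbie and 13.5% for Tnip3.

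**Figure D2:**
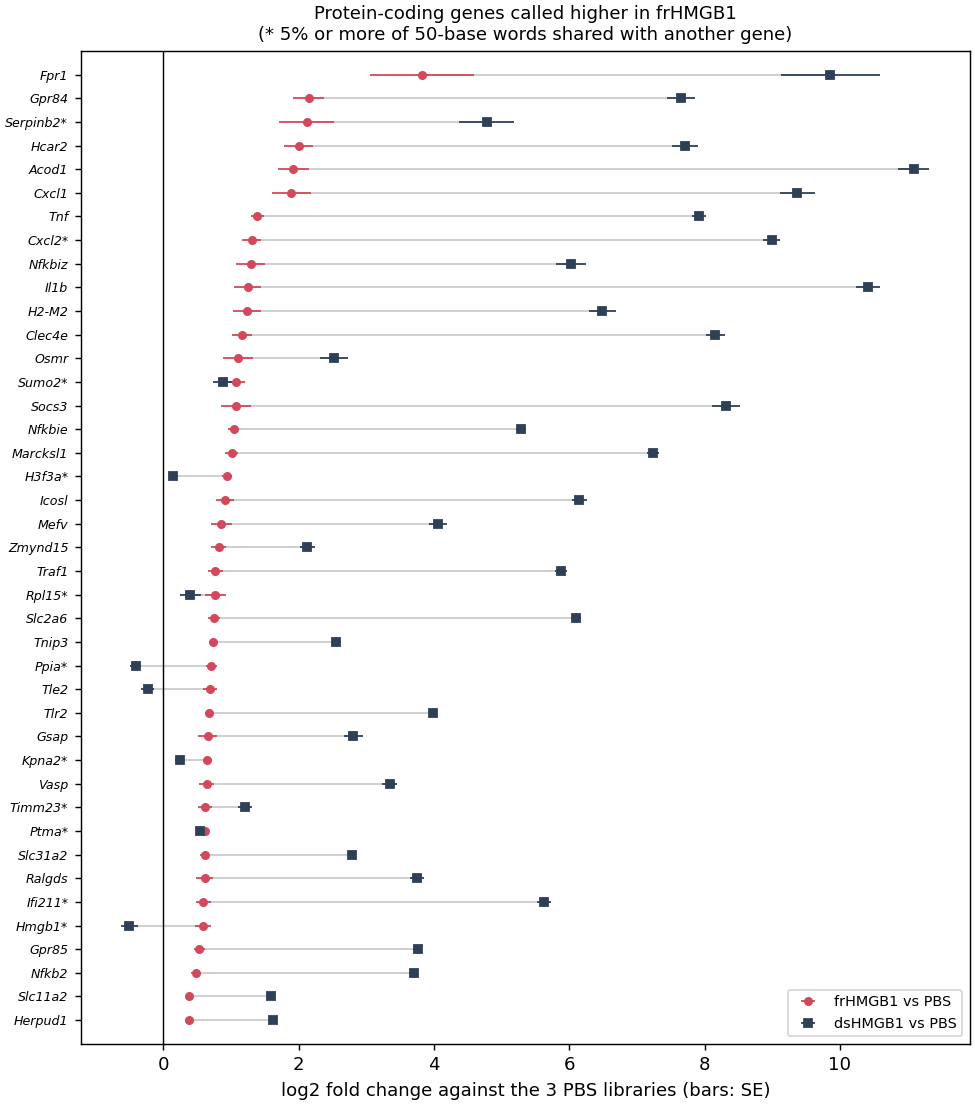
Log2 fold change against the 3 PBS libraries in frHMGB1 (circles) and dsHMGB1 (squares) for the 41 protein-coding genes called higher in frHMGB1, with bars for the SE. An asterisk marks the 11 genes with 5% or more of their 50-base words in another gene. The frHMGB1 values range from 0.38 to 3.82, and the dsHMGB1 values of the inflammatory genes lie to their right while those of Hmgb1, Ppia and Tle2 lie below 0.

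The frHMGB1 libraries differed among themselves in these genes. Of the 16, replicate 3 was the lowest frHMGB1 library for 11, replicate 1 for 5 and replicate 2 for 0. Several TLR4 targets that were high in replicates 1 and 2 were within or near the PBS range in replicate 3. Saa3, an acute-phase protein, had 1050.2, 461 and 49.2 normalized counts in frHMGB1 and 52.6, 47.3 and 227 in PBS. The chemokine Ccl5 had 584, 651 and 111 in frHMGB1 and 218, 137 and 224 in PBS, the scavenger receptor Marco 115, 52.1 and 27.8 in frHMGB1 and 25.6, 27.6 and 31.4 in PBS, and Cd40, a co-stimulatory receptor, 127, 139.9 and 73.8 in frHMGB1 and 47.2, 41.4 and 109 in PBS. None of these 4 was called with all libraries (adjusted p = 0.336, 0.374, 0.243 and 0.385), and all 4 were called higher without PBS replicate 3 (adjusted p = 0.00797, 0.0474, 0.0385 and 0.000601). They were picked with their values in view.

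The interferon, sterol synthesis and complement lists gave no calls with all libraries, and their calls without PBS replicate 3 stand beside 5.06% higher and 6.43% lower over all genes in that fit. Of 37 interferon-stimulated genes, 0 were called with all libraries and 6 were called higher without PBS replicate 3 (Bst2, Ifi35, Irf7, Isg20, Oas1a and Phf11d), with a median log2 fold change of 0.08 and 0.18. The interferon-gamma and MHC class II list gave 0 and 4 of 24 higher, with H2-DMb1, Psmb8, Psmb9 and Tap1 in the second count. Of 24 sterol synthesis genes, 0 were called with all libraries, and 7 were called higher without PBS replicate 3 (Cyp51, Fdft1, Fdps, Insig1, Msmo1, Mvd and Sc5d). The sterol list had nearly the same median in both, 0.19 and 0.20, with 18 and 23 of the 24 genes above 0. Insig1, which holds back cholesterol synthesis, had 3164, 3076 and 2642 normalized counts in PBS and 4089.9, 4033 and 3597 in frHMGB1 without overlap (adjusted p = 0.0636, and 0.00372 without PBS replicate 3). The 16 complement genes gave 0 calls with all libraries, and without PBS replicate 3 C1qa, C1qb, C1qc, C1ra and Cfb were called higher and C5ar2 lower.

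With all libraries, alternative activation (M2) genes had 0 of 17 called, LXR and cholesterol efflux genes 0 of 17, oxLDL scavenger receptors 0 of 12, lipid storage genes 0 of 21, NRF2 and thiol redox genes 0 of 34, integrated stress response genes 0 of 25, heat shock genes 0 of 20, glycolysis and hypoxia genes 0 of 35, p53 targets 0 of 19, lysosomal genes 0 of 35, immediate early genes 0 of 25, purine, prostaglandin and cAMP genes 0 of 26, S-phase genes 0 of 43 and G2/M genes 0 of 54. The median log2 fold changes of these 14 lists lay between -0.18 and 0.18. When PBS replicate 3 was left out, beside 5.06% higher and 6.43% lower over all genes, these lists were not all at 0: M2 genes gave 2 higher and 2 lower, LXR genes 1 and 2, scavenger receptors 3 and 1, lipid storage genes 1 and 3, NRF2 genes 4 and 1, integrated stress response genes 3 and 0, heat shock genes 1 and 2, glycolysis and hypoxia genes 4 and 3, p53 targets 1 and 0, lysosomal genes 2 and 5, immediate early genes 3 and 5, purine, prostaglandin and cAMP genes 4 and 2, S-phase genes 2 and 2, and G2/M genes 3 and 2. Migration, adhesion and cytoskeleton genes, of interest because the reduced form is known as a chemoattractant partner, also had 0 of 48 called with all libraries and a median of 0. Without PBS replicate 3, 2 of these 48 were called higher (Actg1 and Mmp14) and 8 lower (Ccr1, Cd44, Fscn1, Itgav, Itgb3, Mmp12, Myh9 and Tln1). With all libraries, the metallothionein and iron list had only Slc11a2 called and the endoplasmic reticulum stress list only Herpud1, both higher. Without PBS replicate 3, Ftl1 was also called higher and Slc30a1 and Slc40a1 lower on the iron list. On the endoplasmic reticulum stress list Sdf2l1 and Sec61b were then also called higher and Canx, Edem1 and Hsp90b1 lower. Of 59 replication-dependent histone genes, 14 were tested and 0 called with all libraries, and Hist1h2bc was called higher without PBS replicate 3.

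**Figure D3:**
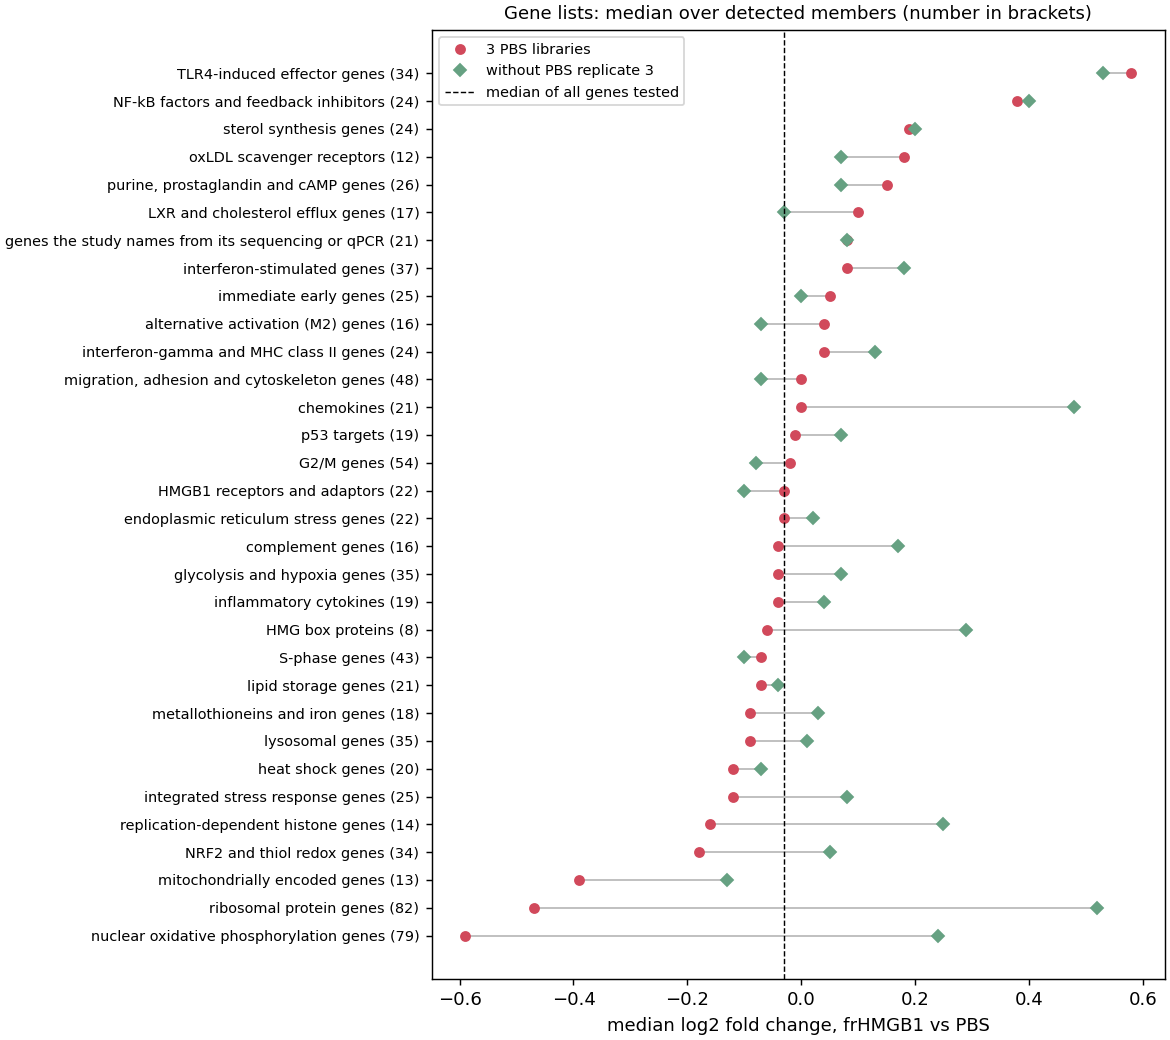
Median log2 fold change of frHMGB1 over PBS for each of 32 gene lists, with all 3 PBS libraries (circles) and without PBS replicate 3 (diamonds), and the number of genes with more than 3 reads in brackets. The dashed line is the median of all genes tested, -0.03. The TLR4 effector and NF-κB lists have the highest medians with all libraries, 0.58 and 0.38, while the ribosomal protein list moves from -0.47 to 0.52.

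Of the receptors and adaptors through which HMGB1 signals, Tlr2 alone was called with all libraries, 1 of 22. Tlr4 had 3414, 3932 and 1487 normalized counts in PBS and 2993, 2829 and 2824 in frHMGB1, and its co-receptor Ly96 (MD-2) had 635, 621 and 812 in PBS and 651, 549 and 623 in frHMGB1 (adjusted p = 0.978 and 0.63). Cxcr4, the receptor of the complex that reduced HMGB1 forms with CXCL12, was abundant, with 18346, 17380.0 and 18269 in PBS and 16407, 14844 and 15284 in frHMGB1. All its frHMGB1 libraries were below all PBS libraries, but the difference of -0.21 ± 0.08 on the log2 scale did not pass the test (adjusted p = 0.455, and 0.0895 without PBS replicate 3). Cxcl12 had 249, 255 and 159 in PBS and 131, 144 and 172 in frHMGB1 (adjusted p = 0.249), and was called lower only in the fit without PBS replicate 3 (-0.76 ± 0.15, adjusted p = 0.00208). Ager, which encodes the receptor RAGE, was scarce in both groups, at 9.44, 13.1 and 57.9 in PBS and 27.4, 21.4 and 14.98 in frHMGB1. Trem1 had 4.04, 10.5 and 0 in PBS and 6.33, 4.08 and 2.14 in frHMGB1 and failed the filter with all libraries. The adaptor Myd88 had 3253, 3193 and 3561 in PBS and 3226, 3271 and 3274 in frHMGB1, a difference of -0.03 ± 0.07. Lbp, Cd14, Tlr9, Havcr2, Cd24a, Siglecg, Itgam, Tirap, Ticam1, Ticam2, Irak1, Irak4 and Syk did not pass the test in either fit (log2 fold change -0.35 to 0.51 with all libraries). Traf6 and Lrp1 were called lower without PBS replicate 3 (-0.27 and -0.39).

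Among 24 genes that the study named, most of them chosen on these samples, Tnf was the 1 gene called with all libraries. The study named TNFα as a protein secreted after dsHMGB1 and not from its sequencing or qPCR. Without PBS replicate 3, Nr1h3 was also called higher and Scarb2 lower. Nr1h3, the sterol sensor LXRα, had 3092, 2899.6 and 4463 normalized counts in PBS and 4142, 4109 and 3984 in frHMGB1 (0.44 ± 0.07 without PBS replicate 3, adjusted p = 0.000601). Its target Abca1, a cholesterol exporter, had 9456, 11171 and 1430.1 in PBS and 9834, 8776 and 9786 in frHMGB1 (adjusted p = 0.813). The lysosomal protein Scarb2 had 10424, 10546 and 10449.5 in PBS and 9440.1, 9020.3 and 9177 in frHMGB1 (-0.19 ± 0.04, adjusted p = 0.0259 without PBS replicate 3 and 0.34 with it). The oxLDL receptor Cd36 had 34826, 38889 and 14022 in PBS and 30762, 32244 and 33472 in frHMGB1, and Olr1, the lectin-like oxLDL receptor, 11.5, 13.1 and 2.41 in PBS and 23.2, 29.6 and 13.9 in frHMGB1 (adjusted p = 0.879 and 0.232). Scarb1, Colec12, Scara3, Cd68, Lpl, Pf4, Cnr2 and Lrrc17 did not pass in either fit, with log2 fold changes from -0.80 for Pf4 to 0.71 for Scara3. Hamp, Ccr7, Rasgrf1, Madcam1 and Ikzf4 had under 6 normalized counts in each of the 6 libraries.

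Some of the other rises were in genes that share sequence with other genes. Of the 25 genes called higher outside the inflammatory lists, 9 shared 5% or more of their 50-base words with another gene, and their log2 fold changes were 0.59 to 1.07. They were the small modifier Sumo2, the histone variant H3f3a, the ribosomal protein Rpl15, the cyclophilin Ppia, the importin Kpna2, prothymosin Ptma, the mitochondrial import protein Timm23, Hmgb1 itself and the interferon-inducible Ifi211. Hmgb1 (ENSMUSG00000066551, chromosome 5, 149046702 to 149184489 on the minus strand) had 680.2, 860.3 and 652 normalized counts in PBS and 1116, 1061 and 1142 in frHMGB1 (log2 fold change 0.59 ± 0.12 (SE), adjusted p = 0.0346). Of its words, 20.4% also occur in other transcripts, with 127 processed pseudogenes among the partners. In dsHMGB1 it averaged 518 and in LPS 534, so it was lower in dsHMGB1 than in frHMGB1 (-1.09 ± 0.12, adjusted p = 3.29e-06). H3f3a had 4896, 4622 and 5505 in PBS and 9480.2, 9417 and 9838 in frHMGB1 (log2 fold change 0.94 ± 0.07), with a mean of 10660 in LPS, 5537 in dsHMGB1 and 5204 in LPS/IFNγ. Sumo2 averaged 442 in PBS, 936 in frHMGB1, 1633 in LPS, 817 in dsHMGB1 and 1029 in LPS/IFNγ. Rpl15 averaged 3012, 5136, 7046, 3975 and 4730 in the same order, and Ppia 5763, 9443, 9222, 4344 and 5530. By group means, 4 of the 9 (H3f3a, Rpl15, Ppia and Kpna2) were highest in frHMGB1 and LPS, the groups whose libraries held the fewest pseudogene counts. The other 5 were not: for Sumo2, Ptma and Timm23, LPS/IFNγ also exceeded frHMGB1, Hmgb1 was lower in LPS than in PBS, and Ifi211 averaged 280.5 in PBS, 425 in frHMGB1, 27860 in LPS and 13990 in dsHMGB1. The part of read assignment in these rises was not tested.

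The falls were mostly of the same kind. Of the 29 genes called lower, 24 (82.8%) shared 5% or more of their words with another gene, against 13.1% of all genes tested, and 12 carried a Gm number or a pseudogene suffix as their symbol. They fell far, with a median log2 fold change of -3.66. In LPS, 27 of the 29 were also called lower than in PBS and 1 higher, with a median of -3.21. In dsHMGB1, 4 were called lower and 3 higher, with a median of -0.03, and in LPS/IFNγ 2 lower and 5 higher, with a median of 0.14. All these comparisons used the same PBS libraries. The falls therefore separated frHMGB1 and LPS from the other 3 groups, which is also how the processed pseudogene share divided the libraries, and treatment and library handling cannot be told apart for them.

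Mitochondrially encoded genes were 5 of the 29. The subunits of cytochrome c oxidase mt-Co2 and mt-Co3, of ATP synthase mt-Atp6 and mt-Atp8, and of complex I mt-Nd3 were called lower. mt-Co2 had 1213, 1099.5 and 2599 normalized counts in PBS and 81.3, 91.9 and 98.5 in frHMGB1 (log2 fold change -4.18 ± 0.36 (SE), adjusted p = 0.000113), and averaged 129.9 in LPS and 1607 in dsHMGB1. Every one of its words also occurs in another annotated transcript. mt-Co3 had 551, 569.8 and 385 in PBS and 29.6, 37.8 and 43.9 in frHMGB1 (log2 fold change -3.76 ± 0.33 (SE), adjusted p = 6.85e-05), and mt-Atp6 had 569, 689 and 414 in PBS and 23.2, 25.5 and 57.8 in frHMGB1 (log2 fold change -3.98 ± 0.39 (SE), adjusted p = 0.000238). mt-Atp8 (log2 fold change -5.18 ± 0.85) shared 0% of its words and mt-Nd3 (-3.85 ± 0.58) 98.0%. The remaining 8 of the 13 mitochondrial genes were not called with all libraries, and mt-Nd4l was called lower without PBS replicate 3. Mitochondrial transcripts as a whole took 0.826% to 0.923% of counts in frHMGB1, 0.84% and 0.89% in PBS replicates 1 and 2, and 0.346% in PBS replicate 3.

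Among the other large falls were gene models that share sequence with other genes. Ftl1-ps1, named as a pseudogene of the ferritin light chain gene, had 12880.1, 13436 and 41811 normalized counts in PBS and 3051, 2797 and 2766 in frHMGB1 (log2 fold change -2.98 ± 0.36, and -2.20 ± 0.12 without PBS replicate 3), with 66.2% of its words shared. Aldoart1, a retrogene of aldolase A, had 306, 288 and 292 in PBS and 19.0, 29.6 and 26.8 in frHMGB1 (log2 fold change -3.55 ± 0.20 (SE), adjusted p = 3.05e-07). Acot10 had 53.2, 70.3 and 61.5 in PBS and 5.28, 5.11 and 4.28 in frHMGB1 (log2 fold change -3.66 ± 0.42 (SE), adjusted p = 5.68e-06). Rbm8a2 had 64.0, 51.9 and 246 normalized counts in PBS, the highest of them in replicate 3, and 0 reads in frHMGB1. Gm9774, Gm9803, Gm3839, Gm10358, AK157302 and Acaa1b, with -3.66, -4.13, -4.69, -5.16, -3.99 and -4.56 on the log2 scale, shared 87.2%, 86.2%, 57.1%, 92.5%, 65.97% and 30.5% of their words. The log2 fold change was -3.52 for Gm9803 and -3.67 for Acaa1b without PBS replicate 3. A pair of falls among paralogs of immune genes had the same shape across groups. Lyz1, the close relative of the macrophage lysozyme gene Lyz2, had 5726, 4562 and 5339 in PBS and 2623, 2227 and 2539 in frHMGB1 (log2 fold change -1.08 ± 0.13), averaged 2164 in LPS and 5093 in dsHMGB1, and shared 16.1% of its words. The MHC class I gene H2-Q2 averaged 85.7, 15.4, 40.9 and 127 in PBS, frHMGB1, LPS and dsHMGB1, and shared 16.1%.

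Modest falls in genes of little shared sequence were few. Kif3a, a motor subunit of intracellular and ciliary transport, had 5503, 6026 and 6780.3 normalized counts in PBS and 4212, 3901 and 4141 in frHMGB1 (log2 fold change -0.58 ± 0.09 (SE), adjusted p = 0.011), and was lower again in dsHMGB1 than in frHMGB1 (mean 1599, adjusted p = 7.22e-08). Slc16a1, the monocarboxylate transporter MCT1, had 646, 690.1 and 635 in PBS and 484, 416 and 439.8 in frHMGB1 (log2 fold change -0.56 ± 0.11 (SE), adjusted p = 0.044), whereas it averaged 1283 in LPS and 4400 in LPS/IFNγ. The nuclear protein gene Nkap had 1030.0, 1106 and 1056 in PBS and 789, 755 and 810.0 in frHMGB1 (log2 fold change -0.44 ± 0.07 (SE), adjusted p = 0.0315). As for every gene called with all libraries, no library of 1 group overlapped with the other for these 3 genes. They were named after their values were seen. A refit on the 11312 genes with under 5% of shared words, chosen after the data were seen, called 29 higher and 3 lower. Of the 29, 28 were also called in the full fit, and 14 were on the inflammatory lists. The 3 lower were Kif3a, mt-Atp8 and Gm4707.

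**Figure D4:**
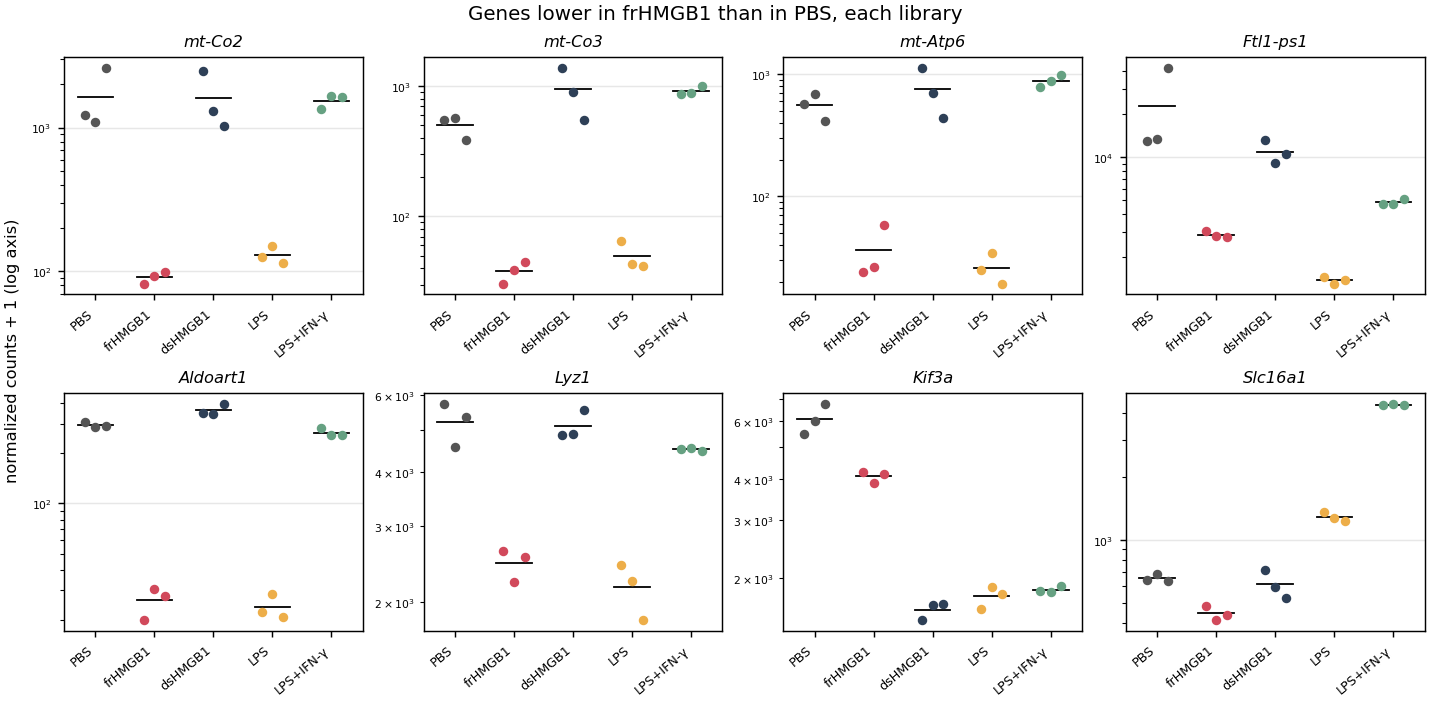
Normalized counts plus 1 (log axis) of 8 genes called lower in frHMGB1, in each of the 15 libraries by condition, with lines for the means of 3. For mt-Co2, mt-Co3, mt-Atp6, Ftl1-ps1, Aldoart1 and Lyz1 the low groups are frHMGB1 and LPS. Kif3a is lowest in dsHMGB1, LPS and LPS/IFNγ, and Slc16a1 is lowest in frHMGB1.

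The larger set of calls made without PBS replicate 3 followed transcript length. The median summed exon length was 2769.5 bases for the 668 genes called higher, 7477 bases for the 848 called lower and 4432.5 bases for all genes tested. Of genes under 1000 bases, 17.5% were called higher and 7.07% lower, and of genes over 12000 bases 0.809% and 19.9%. The shares of all genes set beside the gene lists in this fit were not matched for length. The median log2 fold change fell in steps from 0.24 in the shortest class to -0.27 in the longest. With all 3 PBS libraries it ran the other way at short lengths, from -0.5 under 1000 bases to 0 over 12000. Ribosomal protein genes also turned. With PBS replicate 3 left out, 55 of 82 were called higher with a list median of 0.52, and with it 1 was called and the median was -0.47. The 55 had a median exon length of 1830 bases, and 53 of them (96.4%) shared 5% or more of their words with another gene. Rps29 had 8706, 7749 and 48818 normalized counts in PBS and 24659, 26346 and 24519.8 in frHMGB1, between the PBS libraries. Nuclear oxidative phosphorylation genes turned from a median of -0.59 to 0.24 when PBS replicate 3 was left out, with 24 of 79 then called higher. The part of RNA quality or library preparation in these differences was not tested.

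**Figure D5:**
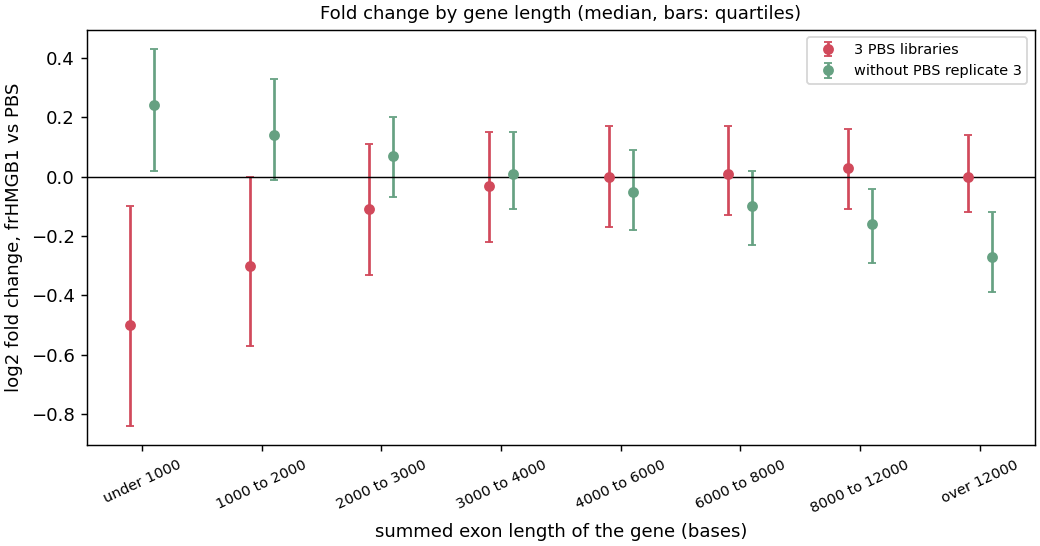
Log2 fold change of frHMGB1 over PBS by summed exon length of the gene in bases, with all 3 PBS libraries and without PBS replicate 3. Points are medians over the protein-coding genes tested in each length class, and bars are quartiles. Without PBS replicate 3 the median falls from 0.24 to -0.27 with length, and with all libraries it rises from -0.5 to 0.

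By the same measure of size, the largest rises without PBS replicate 3 among genes of at least 30 normalized counts whose groups did not overlap were those of Gpr84, Hcar2, Acod1, Serpinb2, Rps29, Tnf, Gm11808 and Ceacam16, and the first 4 and Tnf were also called with it. Ceacam16, a member of the carcinoembryonic antigen family, had 72.1, 48.0 and 92.8 normalized counts in PBS and 125, 203 and 159 in frHMGB1 (log2 fold change 1.44 ± 0.27 without PBS replicate 3, adjusted p = 0.00236, and 0.0748 with it). It averaged 94.8 in dsHMGB1 and 86.7 in LPS, and was lower in dsHMGB1 than in frHMGB1 (adjusted p = 0.0248). Gm11808, a short model that shares 94.5% of its words, had 1968, 1838 and 3849 in PBS and 4913, 5328 and 5327 in frHMGB1. The 8 largest falls by the same rule were mt-Atp8, Gm10358, Gm3839, mt-Atp6, mt-Co3, mt-Co2, Aldoart1 and Gm9774, and all were called with PBS replicate 3 as well.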

How the data were processed

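RNA-Seq libraries of BMDMs were analysed as 5 groups of 3, taken from the treatment labels. The table deposited by the authors holds raw counts per Ensembl gene and library. The submitters' processing notes name CASAVA, STAR, DESeq2 and the build GRCm38, and those sources do not give the counting program or its annotation. The number of table columns without a sample was 0. Gene names, types and positions came from GENCODE M21, in which 51661 of 51763 identifiers were found. The share of 50-base words that a gene's transcripts have in common with those of other genes was computed from the reference transcripts.

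Protein-coding genes passing edgeR's filter on low counts (at least 10 counts scaled to the library size, 15 in total) were normalized by TMM and tested with the quasi-likelihood test in edgeR 4.0.16 under R 4.3.3, with all 15 libraries in 1 fit and again without PBS replicate 3. Calls and adjusted p-values are those of edgeR. The log2 fold changes and their standard errors (SE) are the unshrunken estimates of DESeq2 1.42.0, fitted to the same genes with the TMM factors. The p-values were adjusted by Benjamini-Hochberg over all genes tested, with a threshold of 0.05. Normalized counts are counts divided by TMM size factors with a geometric mean of 1. The script was run on simulated counts whose spread was taken from the fit without PBS replicate 3. That run therefore does not measure the error rates of the main fit. Alternatives were RLE factors, the Wald test of DESeq2 with its own size factors, other filters, all gene types, fewer libraries, a replicate block, leaving out each replicate and, chosen after seeing the data, only genes with under 5% of shared words. Depth limits low genes: a gene with under 10 reads in a library is dominated by counting error.

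The libraries compared, the gene lists and the alternatives were chosen with earlier results of these data known, so a pattern described earlier is not independent support. Named genes were the 12 largest rises and falls whose groups did not overlap and whose mean reached 30 normalized counts, the 8 largest of each without PBS replicate 3, list genes called in both fits, the genes the study named and the HMGB1 receptors. Figures were drawn with matplotlib 3.10.9.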

Additional observations from a re-analysis of the deposited data

Results flagged for a closer look

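Outside the protein-coding genes, the fit over all gene types called 9 long noncoding RNA genes or unassigned transcripts higher in frHMGB1 than in PBS, in data that the comparison of protein-coding genes did not use. In the annotated types that held these 9, 1435 genes were tested, of which 0.627% were called higher and 8 (0.557%) lower. Long noncoding types without a rise, such as sense intronic RNAs, are outside this count. Over all gene types 1.31% were called higher and 5.69% lower, with 861 processed pseudogenes among the falls. Firre, a nuclear noncoding RNA, had 701.1, 563.9 and 483.5 normalized counts in PBS and 1039.6, 1253.9 and 1018.7 in frHMGB1 (log2 fold change 1.00, adjusted p = 0.00933 in edgeR). AI480526 had 206.9, 160.4 and 170 in PBS and 319.8, 333.9 and 284.6 in frHMGB1 (log2 fold change 0.88, adjusted p = 0.0296), and 4930589L23Rik had 82.9, 80.8 and 74.8 and then 123.5, 121.5 and 135.9 (log2 fold change 0.75, adjusted p = 0.0289). The groups did not overlap for any of these 3. Gm42047 rose by 1.09 and A530040E14Rik by 1.03 on the log2 scale (adjusted p = 0.0396 and 0.00788). Gm16685, Gm44878 and A430093F15Rik had under 7 normalized counts in every library of both groups. Gm37416 was at 139.9 and 152 in frHMGB1 replicates 2 and 3 and at 6.3 in replicate 1, within the PBS range of 3.6 to 11.5. All 9 were named after their values were seen.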

How the results depend on the processing

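Of 39 named genes called with all libraries, 0 changed direction under the alternatives in which they were tested. They had been picked by calls in these same libraries, so their stable direction is not independent support. The refit on genes with little shared sequence held 21 of them and the 6-library fit 38. The call was lost for 36 in the 6-library fit, for 12, 14 and 8 without frHMGB1 replicates 1, 2 and 3, and for 8 with a replicate block. All 39 kept it with RLE factors, with DESeq2 and without PBS replicate 3. Rises and falls are counted here over protein-coding genes. With all libraries, 41 rises and 29 falls became 201 and 151 with DESeq2 and 188 and 55 with all gene types in the fit. With the 6 frHMGB1 and PBS libraries alone they were 0 and 2. Leaving out 1 replicate gave 25 to 668 rises and 18 to 848 falls. The highest counts came without PBS replicate 3, 25 rises without frHMGB1 replicate 2, and 19 and 18 falls without frHMGB1 replicates 1 and 2. Genes with under 5% of shared words gave 29 and 3. The inflammatory genes called higher numbered 11 to 40 under the alternatives other than the 6-library fit, which called 0. Without PBS replicate 3, 668 rises and 848 falls became 1325 and 474 with all gene types and 1983 and 1853 with the 5 frHMGB1 and PBS libraries alone. Falls were 486 among genes with little shared sequence, and leaving out 1 frHMGB1 replicate gave 335 to 478 rises and 291 to 531 falls. The cause of these changes was not tested.

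Samples with the same replicate number did not deviate together (correlations of 0.0664, -0.0784 and -0.00255), so the numbers were not taken as pairs. A replicate block gave 32 rises and 23 falls, with 13 inflammatory genes among the rises. The median biological coefficient of variation was 0.184 with PBS replicate 3 and 0.0796 without it.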

Other observations

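Some gene groups were called in part without PBS replicate 3, where 5.06% of all genes were called higher and 6.43% lower, and are given here as values. Of the 25 immediate early genes, Dusp2, Fos and Junb were called higher and Dusp5, Fosb, Fosl2, Myc and Nr4a3 lower, and the median of the list was 0 on the log2 scale. Of the 35 glycolysis and hypoxia genes, the enzymes Eno1, Gapdh, Pgam1 and Pgk1 were called higher and Hk2, Kdm3a and Ndrg1 lower. Of the 8 tested genes on a list of HMG box and other HMG proteins, Hmga1 and Hmgb2 were called higher beside Hmgb1. None of these calls other than Hmgb1 was made with all libraries.

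Among 2028 processed pseudogenes tested with all gene types, 18 were called higher and 861 lower in frHMGB1 than in PBS, with a median log2 fold change of -1.81.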
